A study of Homo sapiens with 3 samples.

Results

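The genes of the FOS and JUN families were examined in peak lists of chromatin immunoprecipitation sequencing (ChIP-seq) for SBNO1, for TAF4 and for control IgG. They were chosen by name and comprised FOS, FOSB, FOSL1 and FOSL2, JUN, JUNB and JUND, and the related genes ATF3, BATF and BATF3, which makes 10 of the 19689 protein-coding genes annotated in GENCODE 44. For each gene, all peaks within 1 kb of a protein-coding transcription start site (TSS), in the gene body and within 50 kb of a TSS were collected with their position, width and score.

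These genes encode the subunits of the activator protein 1 (AP-1) transcription factors. The proteins carry a basic leucine zipper: the zipper joins subunits into dimers and the basic region contacts DNA. FOS proteins need a partner of another family, commonly a JUN protein, whereas JUN proteins can also pair with themselves. AP-1 dimers bind the TPA response element (TRE, TGACTCA, whose other strand reads TGAGTCA), and dimers with ATF or CREB proteins prefer the cAMP response element (CRE, TGACGTCA). Several of the genes are immediate early genes, which are transcribed within minutes of a growth factor or stress signal through MAP kinases, without new protein synthesis. In epithelial tumours AP-1 is known for growth factor, invasion and stress programmes.

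All chromatin came from HuCCT1 cells (HUCCT1 in the labels), an established line from a cholangiocarcinoma, a cancer of the bile ducts. No treatment or genotype is given in the labels, and the 3 libraries differed only in the antibody. SBNO1 is the human homolog of the Drosophila Notch regulator strawberry notch, and TAF4 is a subunit of TFIID, the general factor that assembles with RNA polymerase II at core promoters. Material from biological replicates was combined for each antibody before sequencing, which left 1 library per antibody, no estimate of the spread between replicates and no test. Intervals below are exact 95% Clopper-Pearson intervals and cover counting error only. Peaks near the same gene are not independent of each other.

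The lists held 16147 SBNO1, 12763 TAF4 and 1598 IgG peaks with median widths between 383 and 400 bp. The deposited score is a whole number capped at 1000, and between 34.6% and 43% of each list stood at the cap, so it could not order the highest peaks. The lists give no read numbers and the sequencing depth of the libraries is unknown. Among biliary epithelial marker genes, TAF4 peaks lay within 1 kb of a TSS of KRT7, KRT19, EPCAM and SOX9, and SBNO1 peaks at KRT19, EPCAM and SOX9. None of the 3 lists had a promoter peak at 3 hepatocyte, 2 leukocyte and 2 endothelial marker genes, and of 2 fibroblast markers COL1A1 had a promoter peak of SBNO1 and of TAF4. Peaks do not measure expression.

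To learn whether SBNO1 and TAF4 meet at the genes that encode AP-1, promoter peaks were counted first. 9 of the 10 genes had an SBNO1 peak within 1 kb of a TSS, compared with 25.7% of all protein-coding genes. TAF4 peaks marked the same 9 genes, against 31.9% of all genes, and both proteins together marked 9 genes, against 22.6%. BATF3 was the gene without a promoter peak. Among peaks at or above the median score of their list, TAF4 and both proteins together marked 5 of these genes, and SBNO1 marked 6. The share of all genes at this score is not given here. In the control library, IgG promoter peaks were present at FOSL1 and ATF3, 2 genes, against 1.41% of all genes. Peaks that covered a TSS gave a like picture, with 8 genes for SBNO1 (21.7% of all genes), 8 genes for TAF4 (28.8%) and 2 genes for IgG (0.98%). The BATF promoter peaks stopped short of the TSS.

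**Figure D1:**
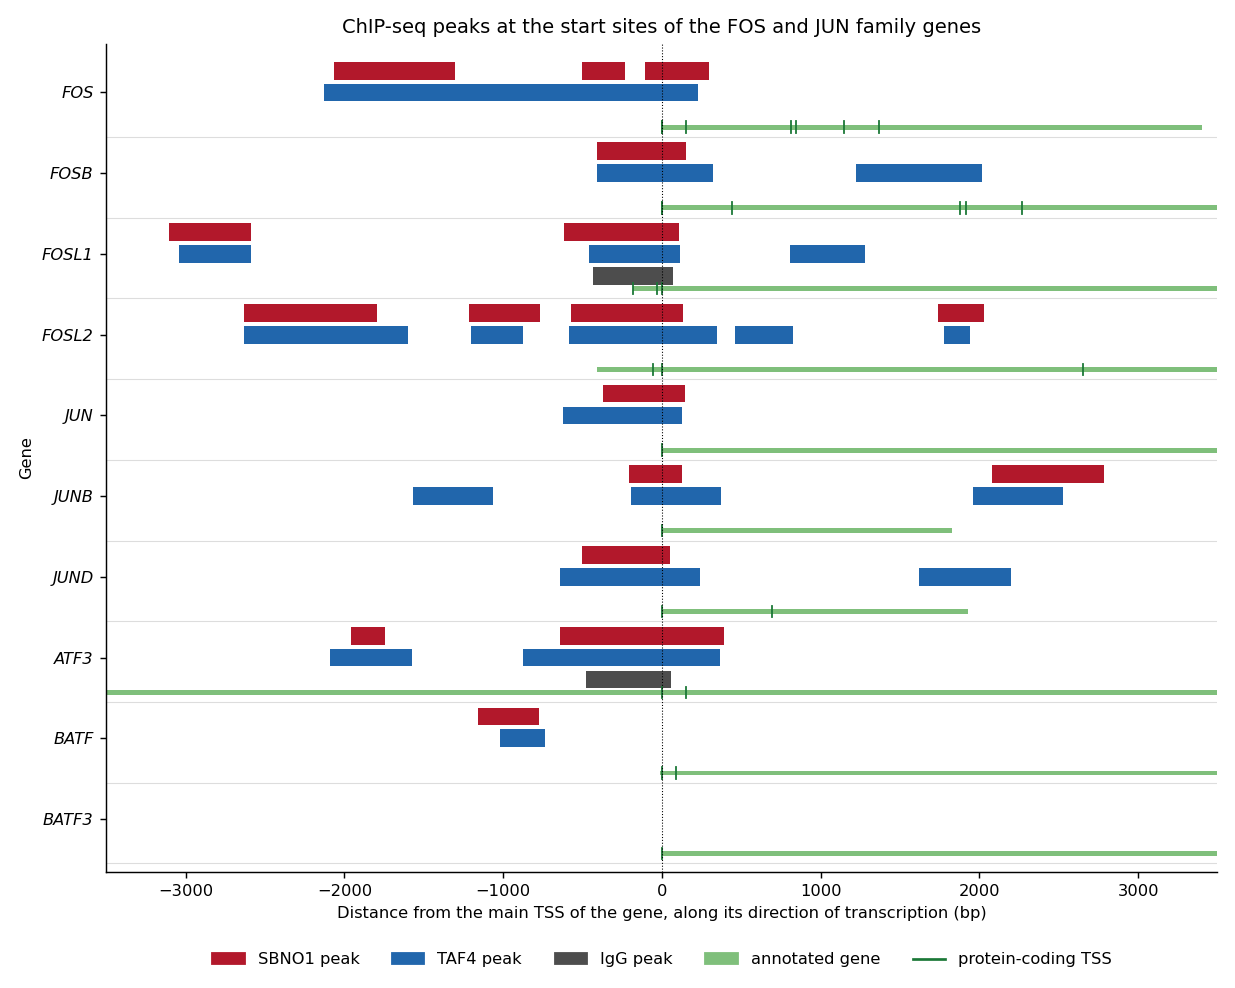
Peaks of SBNO1 (red), TAF4 (blue) and IgG (grey) around the main TSS of each gene, drawn to scale in bp along the direction of transcription, with the annotated gene and its protein-coding TSS in green. Peaks of both proteins covered the main TSS in 8 genes, lay upstream of it at BATF and were missing at BATF3.

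Exactly 1 promoter peak of each protein was found at JUN, JUNB, ATF3 and BATF. More than 1 SBNO1 promoter peak was found at FOS and FOSL2, 2 of 10 genes against 3.07% of all genes. More than 1 TAF4 promoter peak was found at FOSB, FOSL1, FOSL2 and JUND, 4 of 10 genes against 4.23%. At FOSB, FOSL2 and JUND, 1 of these TAF4 peaks lay over 1 kb past the main TSS and counted through another annotated TSS. FOSL2 was the gene with the most promoter peaks, 3 of SBNO1 and 4 of TAF4.

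FOS (ENSG00000170345.10, GRCh38 chromosome 14, 75278826 to 75282230, plus strand) encodes c-Fos, the founding member of the family and the classical immediate early gene. Its MANE Select TSS, taken as the main TSS, is at 75278828. A TAF4 peak of 2360 bp with a score of 925 ran from -2131 to 228 bp of this TSS, negative values being upstream, and 99.6% of TAF4 peaks were narrower. It overlapped 3 separate SBNO1 peaks: 1 of 765 bp from -2066 to -1302 with a score of 735, 1 of 266 bp from -501 to -236 with a score of 1000, and 1 of 407 bp from -109 to 297 over the TSS with a score of 641. The SBNO1 peak of the highest score was thus not the one on the start site, but it was also the narrowest of the 3. Among SBNO1 peaks within 1 kb of a TSS, the lowest score was 800 at 266 bp and 560 at 407 bp. These scores therefore do not rank the 3 peaks by strength. A TAF4 peak that overlapped 3 or more SBNO1 peaks was found 12 times among the 12763 TAF4 peaks (0.094%).

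The SBNO1 peak upstream of FOS is printed in full because it holds the CArG box, the sequence bound by serum response factor (SRF), at -314 to -305, in capitals. The peak over the TSS is printed up to the base before the TSS to show the TATA box at -33 to -28, the core promoter element bound by the TATA-binding protein of TFIID. Coordinates are on GRCh38 and sequences read 5′ to 3′ along the gene.
FOS upstream SBNO1 peak (chr14:75278327-75278592, plus strand): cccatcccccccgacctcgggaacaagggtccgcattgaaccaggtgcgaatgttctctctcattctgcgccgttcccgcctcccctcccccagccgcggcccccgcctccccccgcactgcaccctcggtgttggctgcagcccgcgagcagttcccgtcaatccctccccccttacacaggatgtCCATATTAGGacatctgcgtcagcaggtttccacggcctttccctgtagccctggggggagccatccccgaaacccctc
FOS SBNO1 peak before the TSS (chr14:75278719-75278827, plus strand): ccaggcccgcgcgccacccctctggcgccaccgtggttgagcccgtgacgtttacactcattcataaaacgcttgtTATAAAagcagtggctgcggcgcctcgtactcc

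Neither stretch of FOS held an exact TRE or CRE, and no promoter peak of FOS held one in the central 200 bp. The first SBNO1 peak, from -2066 to -1302, held TGACATCA, the JUN-type variant of the TRE, at -1742 to -1735.

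FOSB (ENSG00000125740.15, chromosome 19, 45467995 to 45475179, plus strand) encodes FosB and, by splicing, the truncated ΔFosB known from long-lasting stimulation. SBNO1 gave 1 peak of 558 bp over the TSS, from -406 to 151, with a score of 500, and only 6.17% of SBNO1 peaks scored lower. The TAF4 peak over this TSS started at the same base, extended to 323 and had a score of 926. Another TAF4 peak of 790 bp with a score of 730 lay from 1224 to 2013, over TSS of shorter transcripts, and had no SBNO1 peak. The distal part of the shared promoter peak is printed because it joins 3 elements, in capitals in this order: a CRE at -325 to -318, a CArG box at -274 to -265 and the ETS motif CCGGAA at -205 to -200. ETS motifs are bound by factors that act with SRF at immediate early genes. A TATA box lay at -30 to -25, outside the printed stretch.
FOSB SBNO1 peak, distal part (chr19:45467666-45467806, plus strand): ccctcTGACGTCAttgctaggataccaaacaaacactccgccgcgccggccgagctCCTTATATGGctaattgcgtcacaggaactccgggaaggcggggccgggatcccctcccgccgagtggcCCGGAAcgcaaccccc

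FOS and FOSB thus shared a CArG box and a TATA box inside the promoter peaks of both proteins. Among all SBNO1 peaks within 1 kb of a TSS, 1.11% held a CArG box in the central 200 bp, a window that took in the CArG box of FOS but not that of FOSB.

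FOSL1 (ENSG00000175592.9, chromosome 11, 65892049 to 65900573, minus strand) encodes FRA-1, a member without the strong activation domain of c-Fos that is often abundant in carcinoma cells. The SBNO1 peak over its TSS spanned 726 bp, from -619 to 106, with a score of 916. TAF4 had a peak of 575 bp with a score of 1000, from -459 to 115, and a further intronic peak of 474 bp with a score of 589, from 805 to 1278. An IgG peak of 502 bp with a score of 583 lay in the same place, from -433 to 68, so the control gave a peak within the signal of both proteins. A TRE lay on the start site itself, within the SBNO1, TAF4 and IgG peaks.

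FOSL2 (ENSG00000075426.12, chromosome 2, 28392448 to 28417317, plus strand) encodes FRA-2. It had the densest promoter of the family. The SBNO1 peaks lay from -1213 to -771 (443 bp, score 878), from -574 to 134 over the TSS (709 bp, score 492) and from 1737 to 2028 (292 bp, score 810). Each of them overlapped a TAF4 peak, with scores of 1000 at all 3 places and widths of 328, 935 and 167 bp. The fourth TAF4 peak, of 361 bp with a score of 827 from 463 to 823, had no SBNO1 peak. At the peak over the TSS a TRE lay just past the start, at 4 to 10. The peaks past the TSS lay within 1 kb of a TSS of the antisense gene FOSL2-AS1, and peaks do not show which strand is transcribed. No IgG peak lay within 1 kb of a FOSL2 TSS.

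JUN (ENSG00000177606.9, chromosome 1, 58776845 to 58784048, minus strand) encodes c-Jun, whose activation domain is phosphorylated by JNK kinases. It has 1 annotated protein-coding TSS. An SBNO1 peak of 513 bp with a score of 915 covered it, from -369 to 143. The TAF4 peak of 751 bp with a score of 1000 ended at 125 and reached 256 bp farther upstream. The stretch before the TSS is printed because it holds the JUN-type TRE, TGACATCA, at -67 to -60, an element known to be bound by JUN and ATF2 dimers, and a CCAAT box, CCAAT, at -87 to -83, both in capitals. No other protein-coding gene started within 50 kb, while the non-coding LINC01135 and a gene without a symbol started within 1 kb of both peaks.
JUN SBNO1 peak before the TSS (chr1:58784048-58784177, minus strand): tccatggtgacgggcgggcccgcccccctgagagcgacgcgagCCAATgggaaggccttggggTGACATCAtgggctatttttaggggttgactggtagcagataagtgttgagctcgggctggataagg

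JUNB (ENSG00000171223.6, chromosome 19, 12791486 to 12793315, plus strand) encodes JunB, a weaker activator than c-Jun at many sites. Its SBNO1 peak was the narrowest of those over a TSS, 332 bp from -205 to 126, and had a score of 916. The TAF4 peak of 564 bp with a score of 1000 reached from -194 to 369. An annotated TSS of HOOK2, which encodes a microtubule-binding adaptor, lay within 1 kb of both peaks. The printed stretch shows a CCAAT box at -67 to -63 and a TATA box at -31 to -26 in capitals.
JUNB SBNO1 peak before the TSS (chr19:12791376-12791485, plus strand): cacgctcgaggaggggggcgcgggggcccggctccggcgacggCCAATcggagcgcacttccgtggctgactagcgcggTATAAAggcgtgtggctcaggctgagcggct

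JUND (ENSG00000130522.6, chromosome 19, 18279694 to 18281622, minus strand) encodes JunD, which is expressed more evenly over time than the other JUN genes. The SBNO1 peak of 554 bp with a score of 673 lay from -504 to 49 and was contained in a TAF4 peak of 880 bp with a score of 854 from -643 to 236. The microRNA gene MIR3188 started within 1 kb of both. A further TAF4 peak of 580 bp with a score of 548 lay from 1619 to 2198, over the end of the short gene, and had no SBNO1 peak. The printed stretch of the shared peak holds a CRE at -200 to -193, near the peak centre, and a CCAAT box at -74 to -70.
JUND SBNO1 peak before the TSS (chr19:18281682-18281842, minus strand): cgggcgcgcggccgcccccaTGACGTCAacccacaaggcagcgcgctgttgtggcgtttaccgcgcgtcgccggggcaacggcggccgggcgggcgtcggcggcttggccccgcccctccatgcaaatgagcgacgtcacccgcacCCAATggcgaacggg

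The 3 JUN genes thus had a peak of each protein over the main TSS and no IgG peak within 50 kb, but differed in the elements within it: a JUN-type TRE in JUN, a TATA box in JUNB and a CRE in JUND.

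ATF3 (ENSG00000162772.18, chromosome 1, 212565334 to 212620777, plus strand) encodes a stress-induced factor that pairs with JUN proteins and can act as a repressor. The gene starts at several TSS, and the promoter peaks lay at the main TSS at 212608761, whereas the upstream TSS, -43427 bp from it, had no peak within 1 kb. SBNO1 covered the main TSS with a peak of 1034 bp and a score of 1000 from -642 to 391, the widest promoter peak of SBNO1 among the 10 genes. TAF4 covered it with 1243 bp and a score of 1000 from -876 to 366. IgG gave a peak of 536 bp there, from -478 to 57, with a score of 408, and only 4.07% of IgG peaks scored lower. A TATA box lay at -32 to -27 within the peaks of all 3 libraries.

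BATF (ENSG00000156127.8, chromosome 14, 75522455 to 75546993, plus strand) and BATF3 (ENSG00000123685.9, chromosome 1, 212686417 to 212699840, minus strand) encode short proteins without an activation domain that are best known from T cells and dendritic cells. The SBNO1 promoter peak of BATF had 388 bp, a score of 783 and lay upstream, from -1160 to -773. The TAF4 peak of 285 bp with a score of 763 overlapped it from -1022 to -738. At BATF3 no list had a peak within 1 kb of the TSS or in the gene.

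Widths and scores of the promoter peaks were then compared with those of all promoter peaks, as a description. The 12 SBNO1 promoter peaks had a median width of 478 bp and a median score of 844, against 420 bp and 850 for the 4791 SBNO1 peaks within 1 kb of any TSS. For TAF4 the 15 peaks had a median width of 580 bp and a median score of 926, against 418 bp and 1000 over 6042 peaks. At the median, the peaks of the family were therefore wider, with scores that were not higher. Since the lowest score falls with width, as given above for SBNO1, these scores do not rank peaks of unlike width by strength. Where peaks of both proteins overlapped over a TSS, TAF4 was the wider in 7 of 8 genes, with FOSL1 as the exception, compared with 58.7% of the 3749 genes with such a pair. The median widths of these pairs were 556 bp for SBNO1 and 815.5 bp for TAF4, against 446 and 478 bp over all genes.

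**Figure D2:**
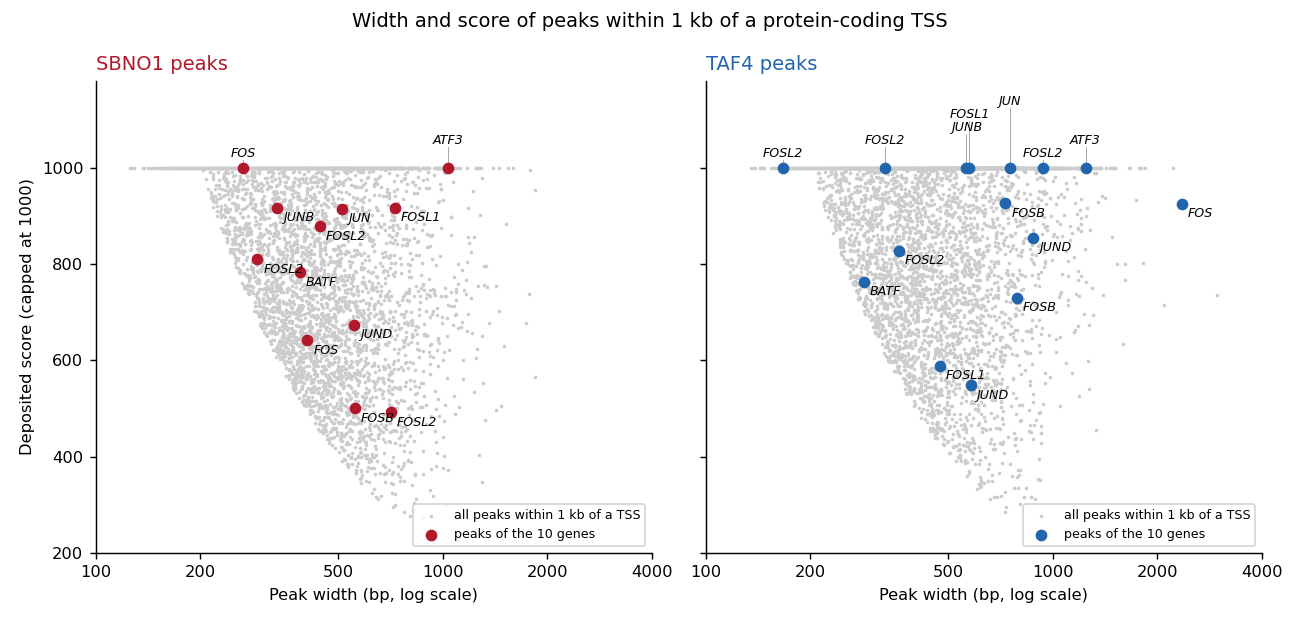
Width in bp (log scale) and deposited score of every SBNO1 (left) and TAF4 (right) peak within 1 kb of a protein-coding TSS in grey, with the promoter peaks of the 10 genes in colour. The TAF4 peak of FOS, 2360 bp wide, stood at the far right, and 2 of 12 SBNO1 and 7 of 15 TAF4 peaks were at the cap of 1000.

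Peaks in the gene body were present in 9 genes for SBNO1, against 33.7% of all genes, in 9 genes for TAF4, against 35.9%, and in 2 genes for IgG, against 2.23%. At or above the median score, for which the share of all genes is not given here, these were 4, 5 and 0 genes. In FOS, FOSB, FOSL1, JUN, JUNB and JUND every one of them was a promoter peak described above. Intronic peaks outside the promoters were found in FOSL2, ATF3 and BATF, the 3 longest of the genes. In FOSL2 an SBNO1 peak of 528 bp (score 726) centred at 16.6 kb overlapped a TAF4 peak of 605 bp (score 940), and TAF4 alone had a peak of 547 bp (score 370) at 13.9 kb. ATF3 had SBNO1 peaks centred at -12.9, -12.3 and -1.85 kb of the main TSS, all with a score of 1000 and in introns, between the upstream and the main TSS. The first 2 of them overlapped 1 TAF4 peak of 1076 bp with a score of 1000, and the last overlapped a TAF4 peak of 516 bp with a score of 646. BATF had an intronic SBNO1 peak of 805 bp (score 816) at 13.5 kb that overlapped a TAF4 peak of 532 bp (score 934).

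Next, the surroundings of the genes were examined. Within 50 kb, SBNO1 peaks were present at all 10 genes, against 56.8% of all genes, TAF4 peaks at 10 genes, against 57.1%, and IgG peaks at 4 genes, FOS, FOSL1, FOSL2 and ATF3, against 5.73%. The median number per gene was 4.5 for SBNO1 and 4 for TAF4, compared with a median of 1 over all genes for either protein. The highest numbers were those of FOSL1, with 13 SBNO1 and 12 TAF4 peaks, and 99.9% of all genes had fewer of either. The FOS genes had 7 to 13 SBNO1 peaks each, counting those at promoters of neighbouring genes. By the same count the JUN genes had 2 to 3, ATF3 had 6, BATF had 3 and BATF3 had 1. TAF4 did not separate the families in this way. FOS had 3 TAF4 peaks, FOSB 7, FOSL1 12 and FOSL2 10, and JUN had 1, JUNB 5 and JUND 4.

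**Figure D3:**
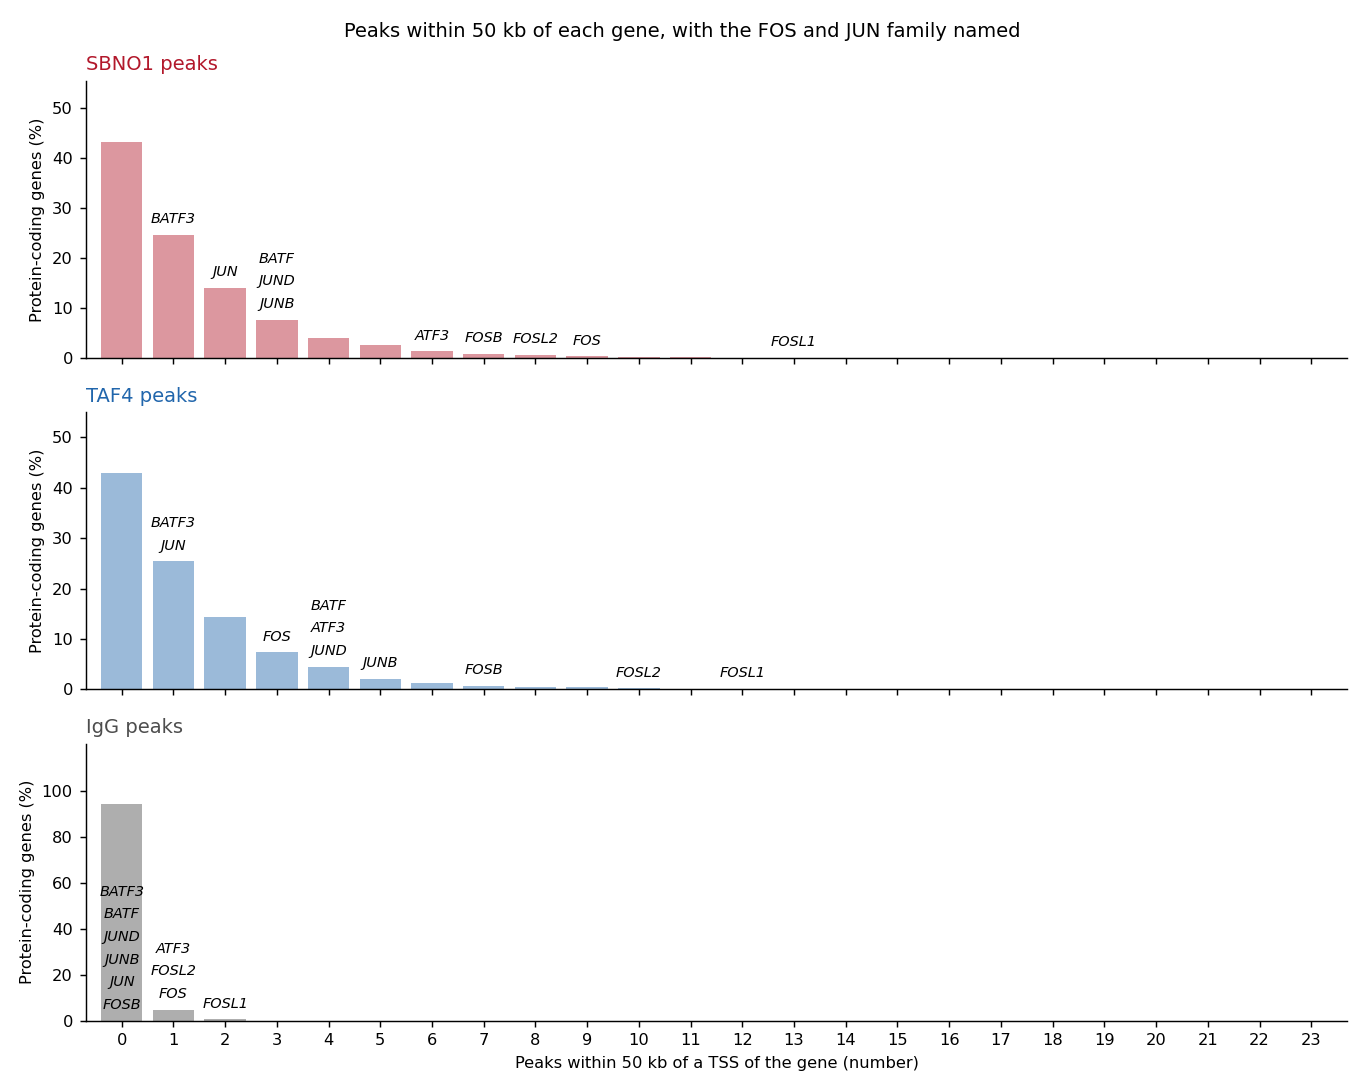
Share of all protein-coding genes (bars, %) by their number of SBNO1, TAF4 or IgG peaks within 50 kb of a TSS, with each of the 10 genes named at its own number. FOSL1, FOS, FOSL2 and FOSB stood in the upper tail of the SBNO1 distribution with 13, 9, 8 and 7 peaks, and BATF3 with 1 peak was at the median.

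The neighbourhoods differed in how many other genes they held. Within 50 kb of FOSL1 lay TSS of 9 other protein-coding genes, within 50 kb of JUNB 7, of JUND 5, of FOSB 4 and of ATF3 1, whereas FOS, FOSL2, JUN, BATF and BATF3 had none. Of the 55 SBNO1 peaks around the 10 genes, 12 lay at promoters of these genes, 13 at promoters of other genes only and 30 over 1 kb from every protein-coding TSS. For TAF4 the numbers were 15, 11 and 25 of 51 peaks, and for IgG 2, 1 and 2 of 5. At least 5 SBNO1 peaks away from every TSS were found at FOS, FOSL2 and ATF3, with 7, 5 and 5 peaks, 3 of 10 genes against 2.19% of all genes. FOSL1 had 4 such peaks, and its high total therefore included 9 peaks at promoters, 1 of its own and 8 of neighbours. FOSB had 2 such peaks and 1 peak at its own promoter, as many of each as JUNB. The other SBNO1 peaks of FOSB lay at promoters of ERCC1 and VASP.

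**Figure D4:**
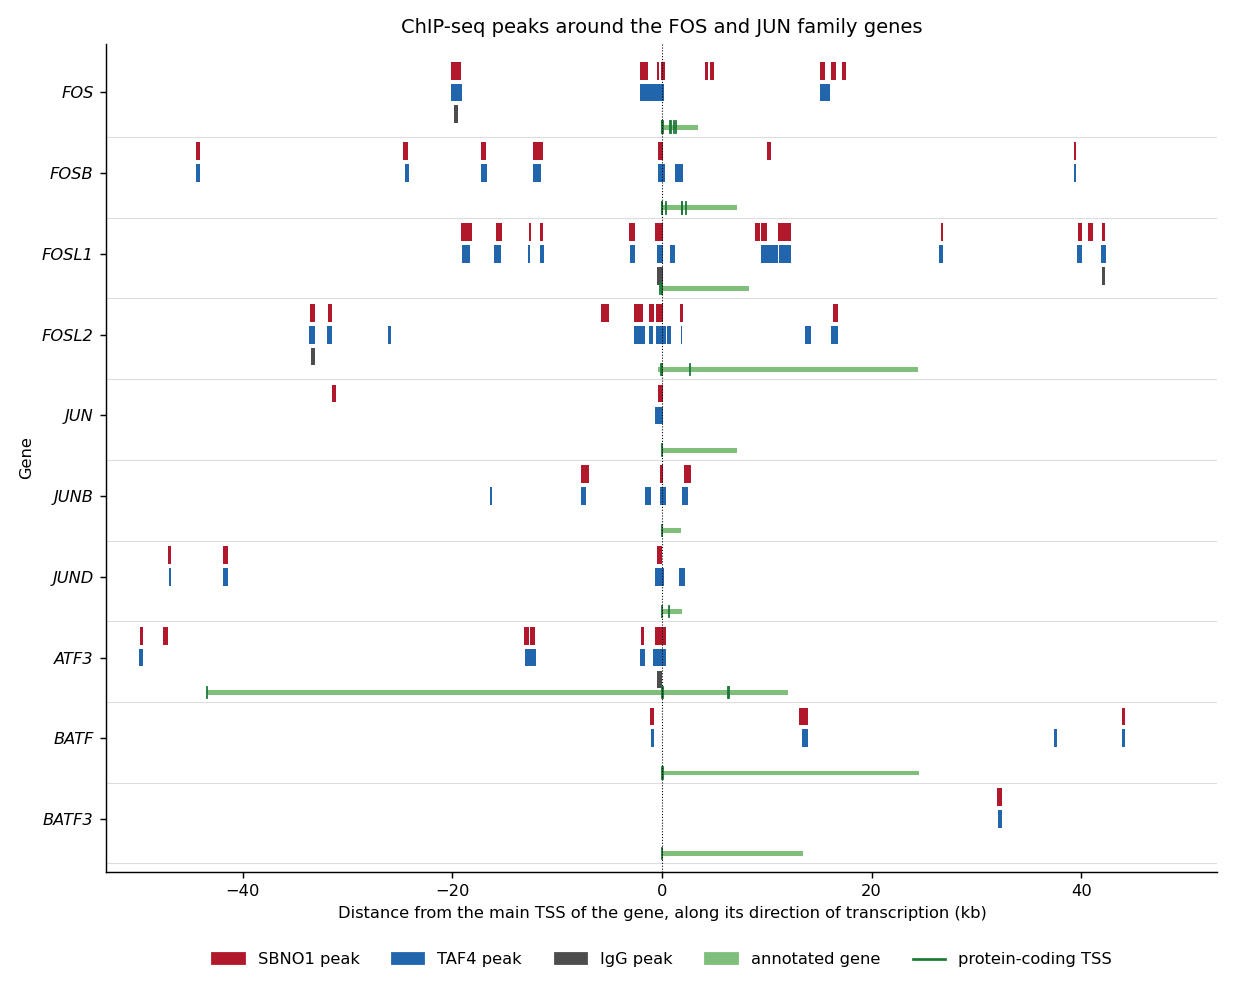
Peaks of SBNO1 (red), TAF4 (blue) and IgG (grey) within 50 kb of a TSS of each gene, placed by their distance in kb from the main TSS along the direction of transcription, with the annotated gene and its TSS in green. FOS, FOSL2 and ATF3 had 5 or more SBNO1 peaks away from promoters, while JUN, JUND and BATF3 had 1 each.

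Around FOS, with no other protein-coding gene in reach, SBNO1 peaks other than those described above lay at -19.6 kb (920 bp, score 1000), at 4.27 and 4.78 kb past the gene (336 and 421 bp, scores 701 and 797) and at 15.4, 16.4 and 17.4 kb (497, 504 and 326 bp, scores 1000, 710 and 625). TAF4 peaks were at -19.6 kb (1033 bp, score 1000) and 15.6 kb (894 bp, score 952). Past FOS there were thus 5 SBNO1 peaks and 1 TAF4 peak, and 4 of the 9 SBNO1 peaks of FOS had no TAF4 peak, more than at any other of the 10 genes. The peak at -19.6 kb coincided with an IgG peak of 408 bp with a score of 902. All 3 peaks there lay within 1 kb of the TSS of long non-coding RNA genes without a symbol, and the peaks at 15.4, 15.6 and 16.4 kb within 1 kb of that of the non-coding LINC01220.

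Around FOSB the SBNO1 and TAF4 peaks of the highest score were a pair at -11.9 kb of 936 and 812 bp and a pair at 39.4 kb of 196 and 235 bp at the promoter of VASP, an actin regulator, all at the cap. A pair at -24.5 and -24.3 kb had 556 bp (score 856) for SBNO1 and 404 bp (score 1000) for TAF4. Around FOSL1 the first-ranked SBNO1 peaks lay at -2.85 kb (516 bp, score 1000) and at 39.9 and 42.1 kb (406 and 334 bp, scores 1000), the last pair at promoters of CFL1 and MUS81. The TAF4 peaks of the highest rank lay at 39.9 and 42.1 kb and at -18.7 kb, where C11orf68 and DRAP1 start. The CFL1 site also had an IgG peak of 308 bp with a score of 1000.

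Around FOSL2 the first-ranked other SBNO1 peaks lay at -33.4 kb (478 bp, score 1000), -31.7 kb (340 bp, score 721) and -2.21 kb (833 bp, score 622). TAF4 had peaks at -33.4 kb (537 bp, score 1000) and -31.7 kb (396 bp, score 961) and a peak without SBNO1 at -26 kb (247 bp, score 864). At -33.3 kb IgG gave a peak of 388 bp with a score of 588.

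Counting peaks at promoters of neighbours, the JUN genes had fewer other SBNO1 peaks than the FOS genes. JUN had an SBNO1 peak of 317 bp with a score of 720 at -31.3 kb and no TAF4 peak with it, within 1 kb of a further TSS of LINC01135. At JUNB, pairs of SBNO1 and TAF4 peaks lay at -7.35 kb (807 bp, score 606) and 2.43 kb (704 bp, score 512), with TAF4 alone at -16.3 kb (184 bp, score 1000) and -1.32 kb (504 bp, score 934). The peak at -16.3 kb and the pair at 2.43 kb lay within 1 kb of an annotated TSS of HOOK2, and the pair at -7.35 kb within 1 kb of that of a gene without a symbol. At JUND, pairs lay at -41.6 kb, the promoter of LSM4, and at -47 kb, with SBNO1 scores of 662 and 804 and TAF4 scores of 1000 for both.

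Beyond the gene, ATF3 had SBNO1 peaks at -49.7 kb (316 bp, score 806), with a TAF4 peak of 397 bp and a score of 852, and at -47.4 kb (457 bp, score 518) without TAF4. The pair at -49.7 kb lay within 1 kb of the TSS of a pair of long non-coding RNA genes without a symbol. BATF had a pair at 44.1 kb, with 307 bp for SBNO1 and 251 bp for TAF4 and scores of 1000, and TAF4 alone at 37.6 kb (291 bp, score 709). The only peaks of BATF3 were a pair past the gene at 32.2 kb, with 499 bp and a score of 1000 for SBNO1, and at 32.3 kb, with 365 bp and a score of 841 for TAF4.

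The overlap of the lists around the genes was determined next. TAF4 peaks overlapped 45 of the 55 (81.8%, interval 69.1% to 90.9%), compared with 59.7% of the whole list. Near a TSS the shares were alike, 22 of 25 peaks (88%, interval 68.8% to 97.5%) against 83.8% of the list. Away from every TSS they were apart, 23 of 30 (76.7%, interval 57.7% to 90.1%) against 49.5%. This held for the 10 peaks at 1 to 5 kb from a TSS, of which 7 overlapped TAF4 (70%, interval 34.8% to 93.3%, list 49.8%), and for the 20 peaks farther away, of which 16 did (80%, interval 56.3% to 94.3%, list 49.4%), although the first interval included the share of the list. Some of these peaks lay at non-coding genes, 7 of 30 within 1 kb of the TSS of any annotated transcript (23.3%, interval 9.93% to 42.3%), against 13.1% of the list. Of the remaining 23 peaks 18 overlapped TAF4 (78.3%, interval 56.3% to 92.5%, list 48%). The 10 SBNO1 peaks without TAF4 were distributed over FOS with 4, FOSL1 with 2, and FOSB, FOSL2, JUN and ATF3 with 1 each. From the other side, 42 of 51 TAF4 peaks overlapped SBNO1 (82.4%, interval 69.1% to 91.6%), against 75.2% of the list.

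The share of SBNO1 peaks that coincided with IgG peaks was close to that of the list over all 55 peaks, and the intervals of both distance classes included the list. Of the 55 SBNO1 peaks, 5 coincided with an IgG peak (9.09%, interval 3.02% to 20%), against 8.57% of the list. Near a TSS these were 3 of 25 (12%, interval 2.55% to 31.2%), against 4.93%, and away from every TSS 2 of 30 (6.67%, interval 0.818% to 22.1%), against 10.1%. All 5 IgG peaks around the genes overlapped peaks of both SBNO1 and TAF4. Without the peaks that overlap IgG, SBNO1 marked the promoters of 7 genes, since FOSL1 and ATF3 were lost, and TAF4 those of 8, since ATF3 was lost. The share of all genes without such peaks is not given here.

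Since the proteins encoded by these genes bind the TRE, the motif was counted in the central 200 bp of the peaks, as an exact match on either strand. Over all 55 SBNO1 peaks around the genes it was found in 7 (12.7%, interval 5.27% to 24.5%), against 27.8% of the whole list, so the interval lay below the list. When whole peaks were searched it was found in 21.8% of the 55, and the share of the list for whole peaks is not given here. By distance, it was found in 7 of the 30 SBNO1 peaks away from every TSS (23.3%, interval 9.93% to 42.3%), compared with 36.5% of the whole list in this class, so the interval included the share of the list. Near a TSS it was found in 0 of 25 peaks (interval 0% to 13.7%), against 7.1% of the list. The motif was therefore not more frequent around the genes of its own binding proteins than elsewhere in the list. The 7 peaks belonged to FOSB, FOSL1, FOSL2 (2 peaks), ATF3 (2 peaks) and BATF3, and none to FOS, a JUN gene or BATF. All 7 overlapped a TAF4 peak and none an IgG peak.

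The TRE sites of these 7 peaks are printed with their flanks, motif in capitals, along the strand of the gene and with the distance of the peak centre from the main TSS.
FOSB -11.9 kb (chr19:45456083-45456143, plus strand): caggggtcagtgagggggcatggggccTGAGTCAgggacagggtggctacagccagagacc
FOSL1 -15.5 kb (chr11:65915888-65915948, minus strand): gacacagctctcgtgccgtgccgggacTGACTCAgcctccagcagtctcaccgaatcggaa
FOSL2 -31.7 kb (chr2:28361093-28361153, plus strand): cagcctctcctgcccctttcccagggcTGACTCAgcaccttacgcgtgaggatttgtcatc
FOSL2 16.6 kb, intron (chr2:28409438-28409498, plus strand): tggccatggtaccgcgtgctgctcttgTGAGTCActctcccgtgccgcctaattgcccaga
ATF3 -49.7 kb, TRE then CRE (chr1:212558985-212559075, plus strand): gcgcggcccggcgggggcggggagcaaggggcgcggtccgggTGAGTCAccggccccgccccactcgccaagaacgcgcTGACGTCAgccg
ATF3 -12.9 kb, intron (chr1:212595732-212595792, plus strand): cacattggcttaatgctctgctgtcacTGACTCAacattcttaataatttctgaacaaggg
BATF3 32.2 kb (chr1:212667532-212667592, minus strand): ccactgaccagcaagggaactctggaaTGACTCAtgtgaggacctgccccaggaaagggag

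The CRE, the related element, was found in 3 of the 30 SBNO1 peaks away from TSS (10%, interval 2.11% to 26.5%), compared with 0.52% of the list. These were the ATF3 peak at -49.7 kb, whose TRE and CRE are printed above, and the following peaks at FOSB and FOSL2. The FOSL2 peak is the one that overlapped an IgG peak.
FOSB -24.5 kb (chr19:45443492-45443552, plus strand): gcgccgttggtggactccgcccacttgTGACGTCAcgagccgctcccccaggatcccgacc
FOSL2 -33.4 kb (chr2:28359367-28359427, plus strand): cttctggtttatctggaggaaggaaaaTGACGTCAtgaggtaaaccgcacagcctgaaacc

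Base composition moved with these results. The GC box GGGCGG, bound by SP factors, was found in 12 of the 30 peaks (40%, interval 22.7% to 59.4%), against 8.4% of the list. The median GC content of the central 200 bp was 57.2% in these peaks and 47% in the list, and 10 of them (33.3%, interval 17.3% to 52.8%) lay within 5 kb of a TSS, compared with 12.9% of the list. The part of base composition and of the distance to a TSS in the motif shares was not tested. Among peaks over 5 kb from every TSS, the GC box was found in 8 of 20 (40%, interval 19.1% to 63.9%), against 7.45% of the list. Among the 23 peaks away from the TSS of every annotated transcript it was 6 (26.1%, interval 10.2% to 48.4%), against 6.57%, and the CRE was found in 2 of them (8.7%, interval 1.07% to 28%), against 0.426%.

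**Figure D5:**
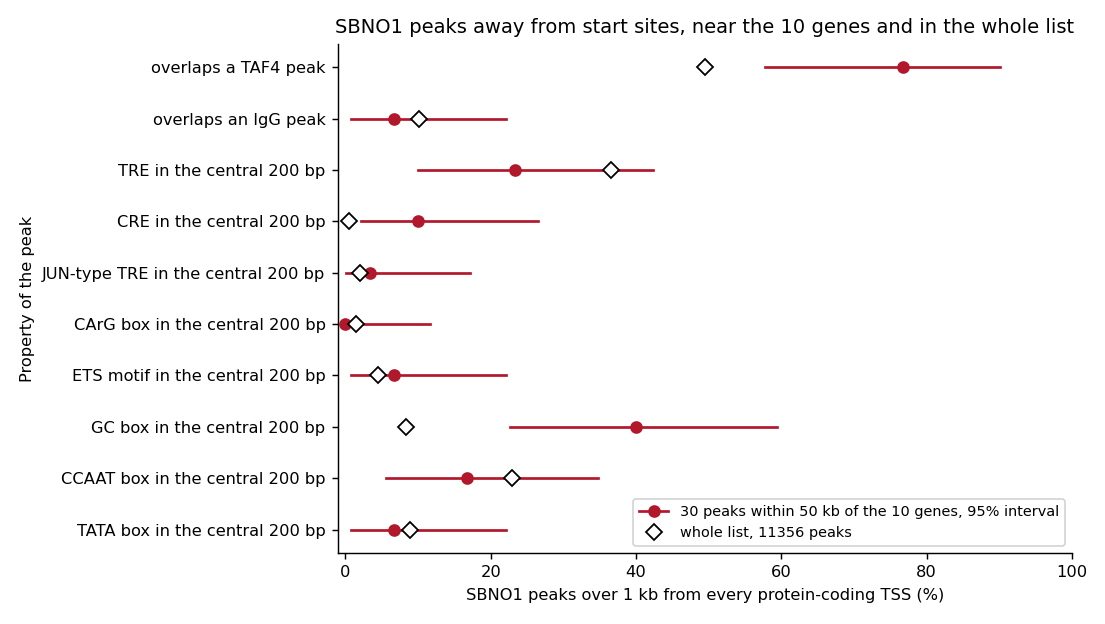
Share (%) of SBNO1 peaks over 1 kb from every protein-coding TSS that overlap another list or hold a motif, for the 30 peaks around the 10 genes (red, with 95% Clopper-Pearson intervals) and for the whole list of 11356 peaks (diamonds). The intervals of the TAF4 overlap, CRE and GC box lie above the list, and that of the TRE includes it.

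Promoter elements were also read from the RefSeq promoter sequences of GRCh38.p14, which span 250 bases before to 50 after a start. Promoters at the main TSS were matched for 7 genes, FOS, FOSB, FOSL2, JUN, JUNB, JUND and BATF. A TATA box, TATAAA, was found in 3 of 7 (FOS, FOSB and JUNB), compared with 9.46% of the 21574 promoters of protein-coding genes. The JUN-type TRE was found in 1 of 7 (JUN; 2.14% of all), the CRE in 1 (JUND; 2.29%), the TRE in 1 (FOSL2; 4.04%) and the GC box in 6 (all but JUNB; 56.8%). The CCAAT box was found in 3 (JUN, JUNB and JUND; 34.8%), and 7 promoters are too few to tell this from the share of all. Outside this window, the FOSL2 peaks over the TSS held a CCAAT box at -348 to -344. A match is a stretch of letters and does not show that a factor was bound.

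Genes that work with AP-1 were then examined for promoter peaks of SBNO1, TAF4 and IgG, beside the shares of all genes given above. Of 19 other basic leucine zipper factors, 8 had an SBNO1 peak (42.1%, interval 20.3% to 66.5%), against 25.7% of all genes. A TAF4 peak was found at 12 (63.2%, interval 38.4% to 83.7%), against 31.9%, and an IgG peak at 2, against 1.41%. Both proteins marked the partner genes ATF2, ATF7, ATF4 and CREB1 as well as DDIT3, MAFK, NFE2L1 and NFE2L2, with DDIT3 and NFE2L1 also marked by IgG. Of 18 kinases and regulators upstream of AP-1, 7 had an SBNO1 peak (38.9%, interval 17.3% to 64.3%), 11 a TAF4 peak (61.1%, interval 35.7% to 82.7%) and 0 an IgG peak. For SBNO1 this interval and that of the other zipper factors included the 25.7% of all genes. For TAF4 the intervals of both lists lay above the 31.9% of all genes. The 7 upstream genes with an SBNO1 peak included SRF, which binds CArG boxes, and the ETS factors ELK1 and ELK4, which act with SRF. They also included the kinase genes MAPK14, MAP2K2 and MAP3K1. Of 3 genes for the degradation of FOS and JUN proteins, DET1 had peaks of both proteins, and FBXW7 and COP1 of TAF4.

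Of 23 genes known as AP-1 targets, 14 had an SBNO1 promoter peak (60.9%, interval 38.5% to 80.3%), 16 a TAF4 peak (69.6%, interval 47.1% to 86.8%) and 0 an IgG peak. They included PLAU and PLAUR of the plasminogen activation system, the EGFR ligand genes EREG, AREG and HBEGF, the negative regulators of MAP kinase signalling DUSP5, DUSP6 and SPRY4, and the cytokine genes IL6 and CXCL8. Of 13 other immediate early genes, 7 had an SBNO1 peak (53.8%, interval 25.1% to 80.8%), 10 a TAF4 peak (76.9%, interval 46.2% to 95%) and 1, DUSP1, an IgG peak. The SBNO1 interval of these 13 genes included the 25.7% of all genes, and that of the AP-1 targets lay above it. For TAF4 the intervals of both lists lay above the 31.9% of all genes. EGR1, IER2, IER3, IER5, NR4A1, DUSP1 and ZFP36 were marked by both proteins. The FOS and JUN family, at 9 of 10 genes (90%, interval 55.5% to 99.7%) for either protein, had the highest share of SBNO1 among these lists, but its interval overlapped those of all the others: the AP-1 targets, the other immediate early genes, the other basic leucine zipper factors (20.3% to 66.5%), the upstream kinases and regulators (17.3% to 64.3%) and the degradation genes (0.84% to 90.6%).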

How the data were processed

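ChIP-seq peak lists of SBNO1, TAF4 and IgG in HuCCT1 cells were used, 1 per antibody. According to the methods of the study, single-end reads were aligned with bowtie2 to GRCh38.p14 and peaks were called with normR, whereas the submitters' processing notes list Bowtie2 2.5.4 and Genrich 0.6.1. Which caller made the lists, its threshold, the treatment of duplicate reads and the use of IgG as control are not given in the sources used here. The study reported far fewer promoters bound within 1 kb, and larger shares of peaks there, than these lists hold. Here 5057 genes had an SBNO1 and 6280 a TAF4 promoter peak, and 29.7% and 47.3% of the peaks lay within 1 kb. The counts above are therefore not those of the peak set that the study counted. The deposited score is the authors' value per peak, capped at 1000, and its scaling is not given. No summit, p or signal column was present, and no peak was filtered.

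Coordinates are 1-based on GRCh38. All peaks lay within the chromosomes of the reference. TSS were the 78567 starts of protein-coding transcripts of 19689 protein-coding genes in GENCODE 44. Distances were measured from the nearest edge of a peak, and a peak near several genes was counted for each. Lists overlapped at 1 bp or more. Motifs were exact matches on both strands (the letters are given in the text, except for the CArG box). Intervals came from SciPy 1.17.1 (Python 3.11.15) and figures from matplotlib 3.10.9. Distance, overlap and motif functions were checked on simulated peaks and sequences.

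The genes and gene lists were chosen with earlier results of these data known. Named were all 10 genes with every promoter and gene body peak, the 3 other peaks of the highest score per gene and library within 50 kb (ties by width, then position), and neighbours with a TSS within 1 kb of a peak given. Further peaks of FOS, FOSL1, FOSL2 and ATF3 were named for completeness or for their motif after their values were seen. A biliary marker gene of the list is not reported here.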

Additional observations from a re-analysis of the deposited data

How the results depend on the processing

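Of 82 alternative values for 13 results, 64 remained within 1.5 times the count or within the interval given, 18 moved and 0 changed direction. Peaks at or above the median score of their list gave promoter peaks at 5 genes for TAF4, 0 for IgG and 5 for both SBNO1 and TAF4 (FOS, FOSB, JUND and BATF were lost beside BATF3), and SBNO1 promoter peaks at 6 genes. They gave gene body peaks at 4, 5 and 0 genes and 24, 27 and 2 peaks within 50 kb for SBNO1, TAF4 and IgG. Shares of all genes at these scores are not given here. Within 25 kb there were 3 IgG peaks, and within 100 kb there were 83 SBNO1 and 77 TAF4 peaks. Only peaks over 1 kb from every TSS left 30, 25 and 2 peaks. The TRE share of 12.7% over all 55 peaks was 26.1% over 1 kb from the TSS of every annotated transcript, an alternative chosen after seeing the data, where that of the list was 37.7%. With a reciprocal overlap of 50%, 69.1% of the SBNO1 peaks overlapped TAF4, and the share of the list under this rule is not given here. In windows shifted by 1000 bp to either side the TRE share was 1.82%, against 3.44% for the whole list. With lists of equal length, FOSB lost its SBNO1 promoter peak. No paired analysis was possible because the design holds 1 library for each antibody, and for the same reason no replicate could be left out. Depth is unknown, so a missing peak, as at BATF3, does not show that a protein was absent.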
